A study of Mus musculus with 12 samples.

Results

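Ptprv, Prrg4, Svop, Ppp2r2c and Ano3 are the 5 genes described here in mouse cells that lost the arginine methyltransferase gene Prmt5. They were chosen by name and by their measured values, since each has a higher RPKM (reads per kilobase of transcript, scaled to the library's mapped reads) with 4-OHT than with EtOH in both expression tables. The tables list 2416 genes as changed in NPC and 111 in MEF, or 2477 genes in all. Of these, 49 stand in both tables and 15 of the 49 were higher with 4-OHT in both, so the 5 genes are a part of those 15.

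The RNA-seq data hold 12 libraries, with 3 in each of 4 groups. NPC (neural progenitor cells, kept as neurospheres in EGF and FGF from E14.5 mouse cortex) and MEF (primary embryonic fibroblasts of the same stage, at passage 1 and grown to confluence) were each given 50 nM 4-OHT or the same volume of ethanol (EtOH) for 24 h. Cells of all 4 groups had the genotype Prmt5 F/FER on a mixed C57BL/6 X 129S1/SvlmJ background, in which 4-OHT (4-hydroxytamoxifen) removes Prmt5. The groups titled wt are therefore EtOH-treated cells with the same conditional allele, and 4-OHT and loss of Prmt5 cannot be told apart. The expression tables hold 1 RPKM value per arm for the 3 libraries together. No spread between replicates can be set beside any value below and the depth of each library is unknown.

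PRMT5 places symmetric dimethyl marks on arginines, among others of the Sm proteins that form the core of spliceosomal snRNPs, and its loss is known to disturb splicing. The 5 genes are not known as one pathway. Ptprv is known in mouse as the gene of a receptor-type tyrosine phosphatase of bone and embryonic cells and as a p53 target in cell cycle arrest. Prrg4 encodes a single-pass membrane protein with a Gla domain, which is carboxylated with vitamin K. Svop encodes a transporter-like protein of synaptic vesicles related to SV2. Ppp2r2c encodes a B-type regulatory subunit of protein phosphatase 2A (PP2A) known from brain. Ano3 encodes a member of the anoctamin (TMEM16) family of channels and lipid scramblases that is known from neurons.

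Start-site windows are shown for those of the 5 genes that have them, because the genes rose together and these windows differ in base composition. RefSeq windows of the build GRCm38.p6, from 250 bases before to 50 bases after a start, were held for 3 of the 5 genes, Prrg4, Ppp2r2c and Ano3, in 4 windows. A window of Ptpn7 is added because Ptpn7 starts 105 bases from Ptprv in the opposite direction in GENCODE M21. This RefSeq window is held for Ptpn7 and none is held for Ptprv, so its label below names Ptprv only as the neighbouring gene. Whether the window covers the start of Ptprv was not checked. Another Ptpn7 window, chr1:135133059-135133358, with a GC box at -28, is not shown. Capitals mark matches to the motifs named after the sequences.
Prrg4, chr2:104849801-104850100, minus strand: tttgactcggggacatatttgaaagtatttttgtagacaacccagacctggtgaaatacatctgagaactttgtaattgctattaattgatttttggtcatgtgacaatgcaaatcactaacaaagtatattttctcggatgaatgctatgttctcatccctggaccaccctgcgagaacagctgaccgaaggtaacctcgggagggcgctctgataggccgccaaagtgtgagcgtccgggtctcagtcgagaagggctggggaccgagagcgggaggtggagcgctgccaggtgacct
Ppp2r2c, chr5:36868260-36868559, plus strand: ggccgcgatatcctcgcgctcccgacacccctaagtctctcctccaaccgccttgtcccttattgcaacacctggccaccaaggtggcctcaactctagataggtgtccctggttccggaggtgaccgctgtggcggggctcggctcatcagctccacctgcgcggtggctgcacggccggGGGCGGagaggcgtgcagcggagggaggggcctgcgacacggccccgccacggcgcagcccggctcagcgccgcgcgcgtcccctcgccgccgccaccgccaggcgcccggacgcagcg
Ano3, upstream start, chr2:110950195-110950494, minus strand: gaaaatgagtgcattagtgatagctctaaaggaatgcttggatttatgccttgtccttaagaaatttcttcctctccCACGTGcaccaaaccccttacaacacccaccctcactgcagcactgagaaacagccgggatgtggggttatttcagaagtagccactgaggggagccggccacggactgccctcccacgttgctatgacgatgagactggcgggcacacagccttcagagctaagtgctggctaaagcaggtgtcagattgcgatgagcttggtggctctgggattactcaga
Ano3, downstream start, chr2:110840010-110840309, minus strand: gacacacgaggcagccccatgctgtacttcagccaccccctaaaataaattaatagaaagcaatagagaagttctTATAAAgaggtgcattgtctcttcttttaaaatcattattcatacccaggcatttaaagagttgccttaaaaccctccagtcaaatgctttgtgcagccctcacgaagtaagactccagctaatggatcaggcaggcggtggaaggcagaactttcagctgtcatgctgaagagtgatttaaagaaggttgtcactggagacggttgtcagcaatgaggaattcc
Ptpn7 and Ptprv, chr1:135132450-135132749, plus strand: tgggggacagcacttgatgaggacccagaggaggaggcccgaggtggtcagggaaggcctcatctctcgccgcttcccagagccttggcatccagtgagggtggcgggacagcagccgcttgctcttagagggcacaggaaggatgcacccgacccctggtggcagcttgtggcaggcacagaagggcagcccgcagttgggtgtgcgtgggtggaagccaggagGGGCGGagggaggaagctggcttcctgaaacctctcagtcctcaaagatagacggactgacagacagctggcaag

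Both strands were searched for the TATA box (TATAAA), the CCAAT box (CCAAT), the GC box (GGGCGG), an E-box (CACGTG, which reads the same on both strands), the cyclic AMP response element (TGACGTCA, also palindromic), the AP-1 site (TGACTCA or TGAGTCA) and the p53 half-site. The E-box stands at position -173 of the upstream Ano3 start, where -1 is the base before the start, and 7.15% of all 32851 windows hold one. The TATA box stands at -175 of the downstream Ano3 start, against 13.6% of all windows with one. GC boxes stand at -69 of Ppp2r2c and at -25 of Ptpn7, and 35.7% of windows have one. No listed motif is in the Prrg4 window. The p53 half-site, found in 8.36% of all windows, is in none of the 5 windows shown. The CCAAT box, the cyclic AMP response element and the AP-1 site, in 37.4%, 1.79% and 5.20% of all windows, were not found in the 5 windows either. The Ppp2r2c window is the richest in G and C, at 72.7% with 36 CG dinucleotides, above 93.9% of all windows in GC content. Prrg4 has 49.0% and 13 CG dinucleotides, the upstream Ano3 start 52.0% and 8, and the downstream one 43.7% and 4, beside medians of 52.7% and 7 over all windows. The Ptpn7 window shown has 63.3% and 10. The 3 genes with windows of their own therefore do not share one promoter composition.

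Prmt5 itself had 4.92 RPKM with 4-OHT and 33.4 RPKM with EtOH in NPC, and 3.76 and 20.96 RPKM in MEF. Its log2 fold changes of 4-OHT over EtOH were -2.76 and -2.48, in the direction the labels give. The tables list changed genes only, with an unadjusted Cuffdiff p under 0.05 in the deposited values and a change of at least 1.5-fold in NPC and 1.57-fold in MEF. Levels of most defining markers are therefore not given. A marker is listed because it changed, so its listing does not check the labelled cell types. Of 16 neural progenitor markers 3 are listed in NPC and none in MEF. Hes5, a Notch effector gene, was lower, at 4.77 RPKM with 4-OHT and 15.8 RPKM with EtOH, while Ednrb was higher, at 161 and 86.0 RPKM, as was Id1, at 8.47 and 4.11 RPKM. Of 10 fibroblast markers none is listed in either table.

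All 5 genes rose in NPC, and for 4 of them the level went up by over 5-fold. Ptprv had 2.82 RPKM with 4-OHT and 0.138 RPKM with EtOH, a 20.4-fold rise. Prrg4 had 3.87 RPKM with 4-OHT and 0.509 RPKM with EtOH, a 7.61-fold rise. Both stood under 1 RPKM with EtOH and above it with 4-OHT. Svop reached the highest level of the 5 genes, 11.6 RPKM with 4-OHT against 1.88 RPKM with EtOH, or 6.17-fold. Ppp2r2c had 5.87 RPKM with 4-OHT and 1.13 RPKM with EtOH, which is 5.21-fold. Ano3 started highest and rose least, with 9.41 RPKM with 4-OHT and 3.64 RPKM with EtOH, or 2.59-fold. The 2 genes lowest with EtOH, Ptprv and Prrg4, thus had the largest folds, where the EtOH level is also the denominator of the fold. With 4-OHT the levels of the 5 genes spanned 4.13-fold, from 2.82 to 11.6 RPKM, and with EtOH they spanned 26.4-fold.

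The log2 fold changes in NPC were 4.35 for Ptprv, 2.93 for Prrg4, 2.63 for Svop, 2.38 for Ppp2r2c and 1.37 for Ano3. Among the 1357 higher genes with an EtOH level above 0, Ptprv ranked 1, Prrg4 30, Svop 53, Ppp2r2c 72 and Ano3 369 by this value. The median of those 1357 genes was 0.99. Of all listed NPC genes 56.6% were higher, 28.1% were higher and at or over a log2 value of 1, and 47.1% were higher with a p under 0.01. The 5 genes meet each of these, but the same contrast chose them, so nothing is read from their count. In the authors' deposited table the p of Cuffdiff is printed as 0 for Ptprv, Prrg4, Svop and Ppp2r2c, below the smallest non-zero entry of 2.22e-16, and as 5.67e-13 for Ano3.

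All 5 genes were higher in MEF too, over a much narrower range of folds. Svop had 1.11 RPKM with 4-OHT and 0.447 RPKM with EtOH, a 2.47-fold rise. Ppp2r2c had 0.277 RPKM with 4-OHT and 0.113 RPKM with EtOH, a 2.44-fold rise at the lowest level of the 5 genes. Ptprv had 1.65 RPKM with 4-OHT and 0.694 RPKM with EtOH, or 2.37-fold. These 3 genes rose by much the same fold from low starts. Ano3 had the highest levels of the 5 genes in MEF, 8.68 RPKM with 4-OHT and 4.31 RPKM with EtOH, or 2.01-fold. Prrg4, at 7.61 RPKM with 4-OHT and 4.27 RPKM with EtOH, rose least, by 1.78-fold. The spread of levels among the 5 genes stayed wide, at 31.3-fold with 4-OHT and 38.0-fold with EtOH.

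The log2 fold changes in MEF were 1.31 for Svop, 1.29 for Ppp2r2c, 1.25 for Ptprv, 1.01 for Ano3 and 0.83 for Prrg4. Among 54 higher genes with an EtOH level above 0 they ranked 11, 12, 14, 26 and 42, around a median of 1.00. Of the 111 MEF genes 50.5% were higher and 26.1% were higher and at or over a log2 value of 1, a limit that 4 of the 5 genes meet and Prrg4 does not. These counts too come from the contrast that chose the genes. The authors' deposited table gives Cuffdiff p-values of 0.00692 for Ptprv, 0.0167 for Ano3, 0.0187 for Svop, 0.0316 for Prrg4 and 0.0412 for Ppp2r2c. Ptprv alone of the 5 genes is under 0.01, and 8.11% of the 111 listed MEF genes were higher with such a p. These values are unadjusted, and Prmt5 is the single listed MEF gene whose highest possible Benjamini-Hochberg adjusted p is under 0.05.

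**Figure D1:**
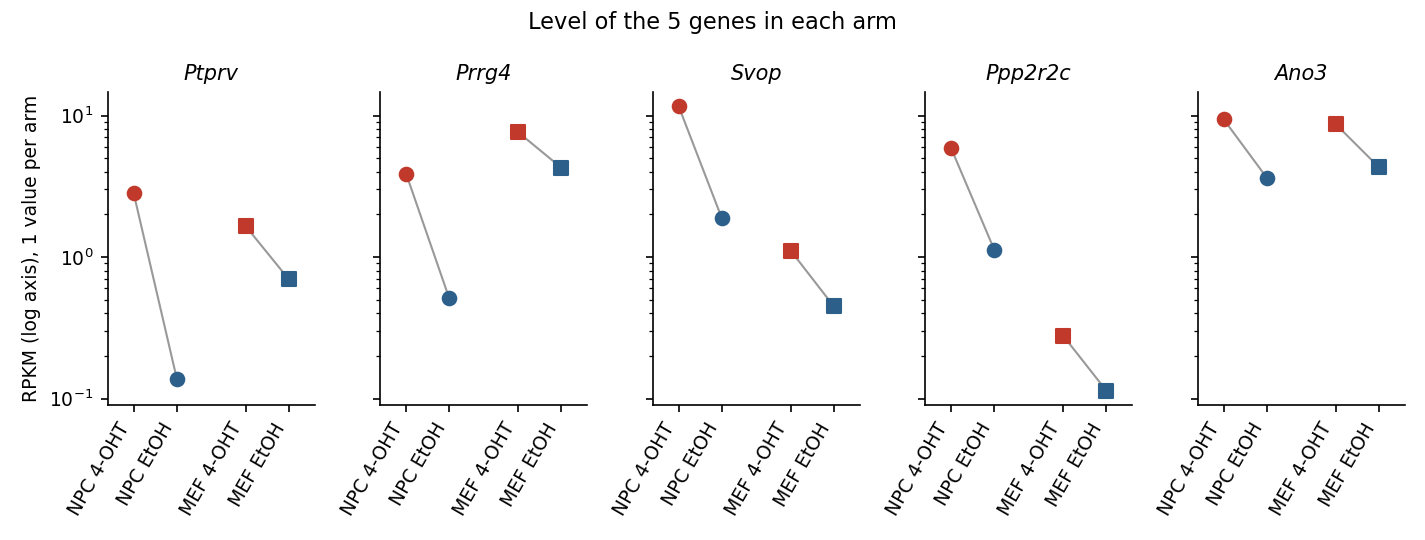
RPKM of each of the 5 genes on a log axis, with NPC as circles and MEF as squares, 4-OHT in red and EtOH in blue, and 1 deposited value per arm for 3 libraries, so no error bar can be drawn. The line from 4-OHT to EtOH is steepest for Ptprv in NPC, at 2.82 and 0.138 RPKM, and the Ano3 values of both cell types lie close together.

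**Figure D2:**
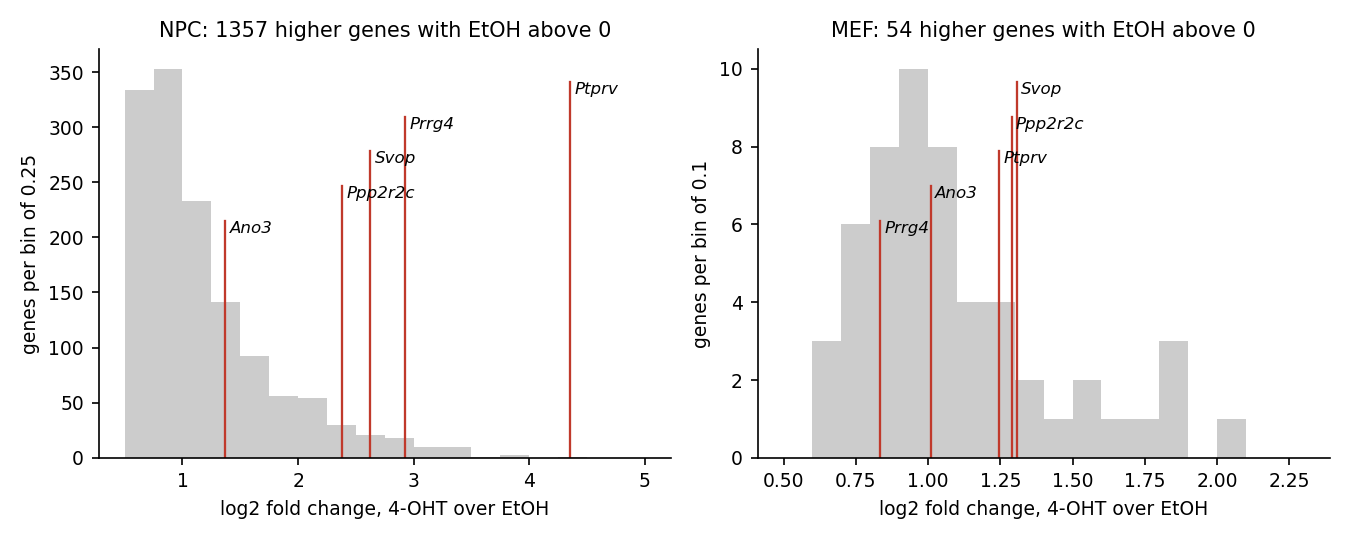
Histograms of the log2 fold change of 4-OHT over EtOH for all genes listed as higher with an EtOH level above 0, 1357 in NPC and 54 in MEF, with the 5 genes as red lines. In NPC Ptprv lies beyond the rest at 4.35, while in MEF the 5 genes lie between 0.83 and 1.31, within the body of the distribution.

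Starting levels differed between the cell types in both directions. The tables were normalised separately, so the levels are set side by side with no test. Ptprv and Prrg4 were lower in NPC: with EtOH, Ptprv was 5.03-fold and Prrg4 8.38-fold higher in MEF. Svop and Ppp2r2c were higher in NPC with EtOH, by 4.21-fold and 9.93-fold. Ano3 was near equal, 1.19-fold higher in MEF. Over all 49 genes of both tables, of which 27 were lower with 4-OHT in both, the median log2 ratio of NPC over MEF with EtOH was 1.2. For the 5 genes it was -0.25, with values from -3.07 to 3.31, and for the other 10 genes higher in both -2.06. The 49 genes are listed because they changed, so 1.2 is no general offset between the cell types.

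The rise was larger in NPC for each of the 5 genes on the log2 scale, whichever cell type started higher. The log2 fold change in NPC exceeded that in MEF by 3.11 for Ptprv, 2.09 for Prrg4, 1.32 for Svop, 1.09 for Ppp2r2c and 0.36 for Ano3. Ptprv started lower in NPC and ended higher there, at 2.82 RPKM with 4-OHT in NPC against 1.65 RPKM in MEF. Prrg4 also started lower in NPC, and its NPC level with 4-OHT, 3.87 RPKM, was still below the 4.27 RPKM of MEF with EtOH. For Svop and Ppp2r2c the starting gap widened, to 10.5-fold and 21.2-fold higher in NPC with 4-OHT. Even with 4-OHT, MEF held less of both than NPC with EtOH. Ano3 had similar levels in both cell types in either arm, and with 4-OHT NPC stood at 1.08 times MEF.

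The absolute rise tells the genes apart in another way. Prrg4 gained 3.36 RPKM in NPC and 3.34 RPKM in MEF, a near equal gain from unequal starts, which is a large fold in NPC and the smallest of the 5 genes in MEF. Ano3 gained 5.77 RPKM in NPC and 4.37 RPKM in MEF. Ptprv gained 2.68 and 0.952 RPKM, Svop 9.75 and 0.660 RPKM, and Ppp2r2c 4.74 and 0.164 RPKM, in NPC and MEF in that order. The gain of Ppp2r2c in MEF is small in reads as well. Taking the longest GENCODE M21 transcript of 4088 bases, its RPKM values correspond to about 1.13 RPM (reads scaled to mapped reads as in RPKM, without the length) with 4-OHT and 0.464 RPM with EtOH in MEF. The same estimate for Ano3, whose longest transcript has 6705 bases, gives 58.2 RPM with 4-OHT and 28.9 RPM with EtOH in MEF.

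**Figure D3:**
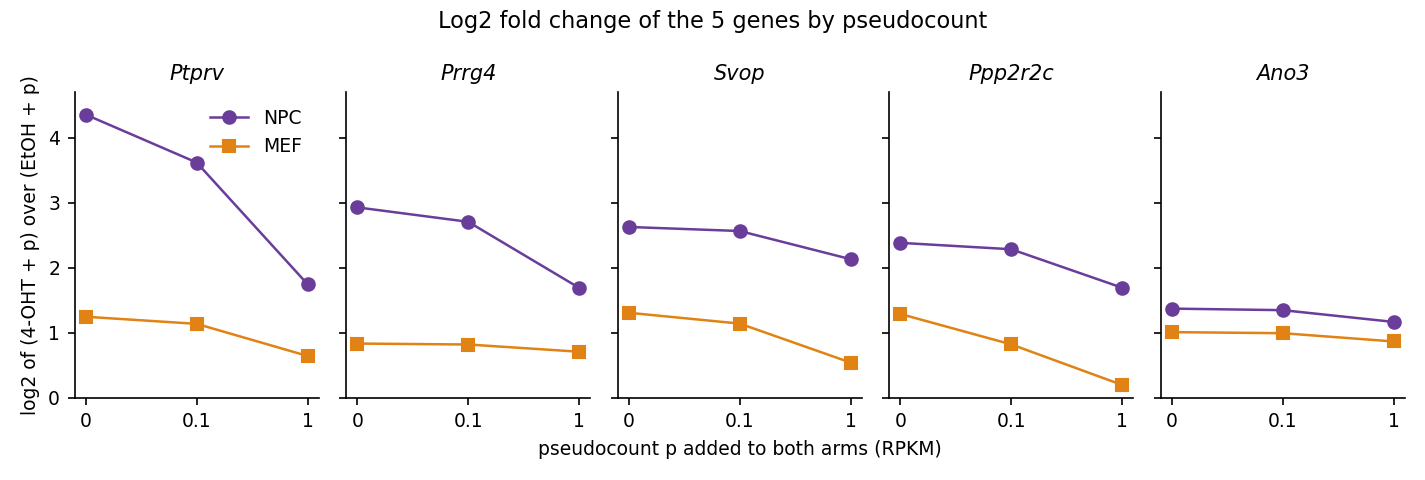
Log2 fold change of 4-OHT over EtOH of the 5 genes in NPC (circles) and MEF (squares) as deposited (0) and after adding 0.1 or 1 RPKM to both arms, with a linear axis for the fold change and 3 evenly spaced settings. NPC lies above MEF at each setting for all 5 genes, while Ptprv in NPC falls to 1.75 and Ppp2r2c in MEF to 0.20 with 1 RPKM added.

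Set against the genes of both tables, 30.6% of the 49 were higher in both, and 22.4% were higher in both with the larger log2 fold change in NPC. The 5 genes all belong to the second kind, and so do 6 of the other 10 genes higher in both. In NPC the 5 genes had log2 fold changes of 1.37 to 4.35 with a median of 2.63, and the other 10 genes 0.64 to 2.38 with a median of 0.84. In MEF the 5 genes had 0.83 to 1.31 with a median of 1.25, and the other 10 genes 0.69 to 1.26 with a median of 0.85. The 5 genes differed between the cell types by a median of 1.32, and the other 10 genes by a median of 0.05, both as NPC minus MEF. The 2 sets were formed by these same values, so this difference is a description.

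Of the other 10 genes, Dsp and Rgs4 had the largest changes in NPC. Dsp, which encodes the desmosome protein desmoplakin, had 0.0263 RPKM with 4-OHT and 0.00506 RPKM with EtOH in NPC, and 1.67 and 0.819 RPKM in MEF. Rgs4, a regulator of G protein signalling, had 0.358 RPKM with 4-OHT and 0.132 RPKM with EtOH in NPC, and 20.1 and 8.90 RPKM in MEF. In NPC the log2 values of Parm1, Adamtsl1, Mylk (myosin light chain kinase), Kank4 and the Notch ligand gene Jag1 were 1.06, 1.00, 0.85, 0.83 and 0.77, and in MEF they were 0.84, 0.91, 0.71, 0.87 and 0.77. Limch1 and Arhgap20 had 0.67 and 0.66 in NPC and 0.69 and 1.26 in MEF. Just inside the rule, the smallest rises among the 5 genes were 1.37 for Ano3 in NPC and 0.83 for Prrg4 in MEF. The other 10 genes share the direction of the rule and were not among the names chosen. Outside the rule by direction stand genes that moved in opposite directions. Of these, Phyh, for peroxisomal phytanic acid oxidation, was higher in NPC (log2 value 1.38) and lower in MEF (-0.71). St8sia2, a polysialic acid synthase gene, was lower in NPC (-0.61) and higher in MEF (1.23).

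By distance in the pair of log2 fold changes, over 2 cell types and 49 genes, the nearest gene to Svop was Ppp2r2c at 0.24, and the reverse. Dsp came next to both, at 0.37 and 0.26. Nearest to Prrg4 were Svop, Dsp and Ppp2r2c at 0.56, 0.58 and 0.71. Ptprv stood apart, its nearest gene being Prrg4 at 1.48, then Svop at 1.73 and Ppp2r2c at 1.97. Ano3 was nearest to none of the other members but to Rgs4, Parm1 and Adamtsl1, at 0.17, 0.36 and 0.39.

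**Figure D4:**
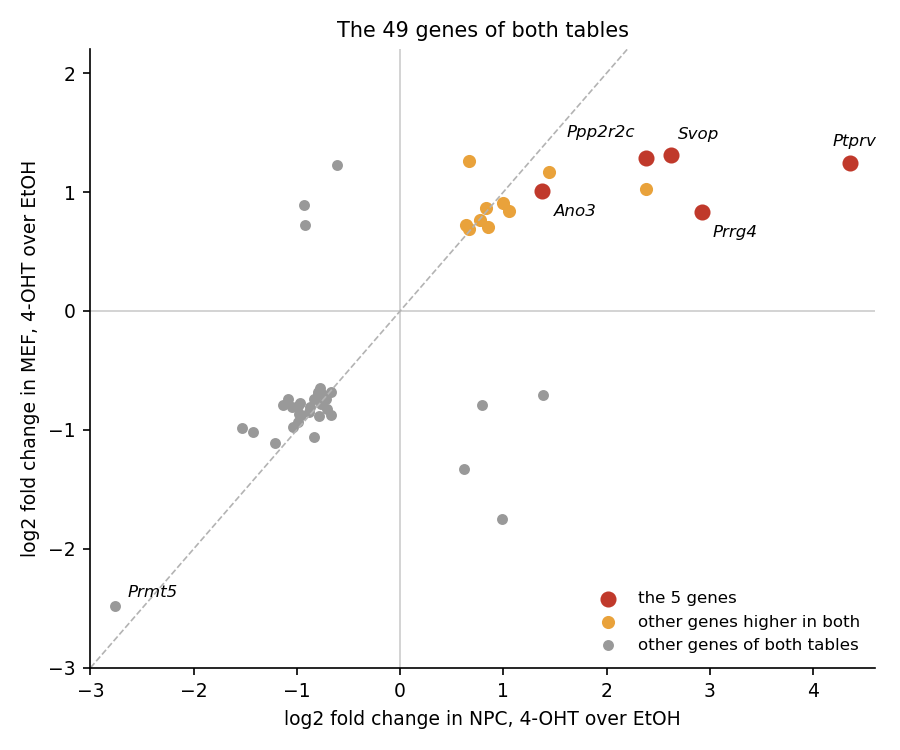
Log2 fold changes of 4-OHT over EtOH in NPC (x axis) and MEF (y axis) for the 49 genes of both tables, with the 5 genes in red, the other 10 genes higher in both in orange, the rest in grey, and a dashed line of equal change. All 5 genes lie below the line, with Ptprv at 4.35 and 1.25 and Ano3 at 1.37 and 1.01.

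The families of the 5 genes moved only in part. Of 21 receptor-type tyrosine phosphatase genes 7 are listed in NPC and 4 in MEF, with Ptprv among them in both. Without Ptprv, which was chosen for its rise, 5 of 6 were higher in NPC and 3 of 3 in MEF. Of all listed genes 56.6% were higher in NPC and 50.5% in MEF. Besides Ptprv, the NPC genes are Ptprt with 5.10 RPKM with 4-OHT and 1.796 RPKM with EtOH, Ptprn, Ptpre, Ptpro and Ptprj with log2 fold changes of 1.39, 0.79, 0.66 and 0.64, and the lower Ptpru with -0.60. In MEF they are Ptprq, Ptprd and Ptprz1 with 0.98, 0.80 and 0.75. The median log2 fold change of the listed family genes other than Ptprv was 0.72 in NPC and 0.80 in MEF. Over all listed genes, lower ones included, it was 0.66 and 0.65. In MEF 0.65 is also the smallest change listed, so no higher gene could lie below it. Among all higher genes with an EtOH level above 0 the median was 0.99 in NPC and 1.00 in MEF.

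Of 24 genes of PP2A subunits and inhibitors, Ppp2r2c is the single subunit gene listed, in either table. The other listed gene is Set, which encodes a PP2A inhibitor, at 79.2 RPKM with 4-OHT and 127 RPKM with EtOH in NPC. Of 11 genes of Gla proteins and the vitamin K cycle, Prrg4 is listed with Gas6, a vitamin K-dependent ligand of TAM receptors, at 22.7 RPKM with 4-OHT and 10.3 RPKM with EtOH in NPC. In MEF Prrg4 is the one listed gene of the 11. Of 10 anoctamins, Ano4 and Ano1 are listed with Ano3 in NPC, at log2 fold changes of 0.88 and 0.98 but with 0.568 and 0.139 RPKM with 4-OHT, and in MEF Ano3 alone is listed.

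Svop belonged to a mixed group. Of 25 genes of SV2-related and synaptic vesicle proteins 7 are listed in NPC, 5 higher and 2 lower, and without Svop 4 of 6 were higher, near the 56.6% of all listed NPC genes. The vesicle genes Synpr, Sv2a and Syt11 had log2 fold changes of 1.56, 0.91 and 0.74, and Syt4 had 1.67 at 0.178 RPKM with 4-OHT. Sv2c, a paralog of the same family as Sv2a, and Snap25, of the exocytic SNARE complex, were lower, with -0.88 and -0.75. In MEF 2 of the 25 genes are listed, both higher, Svop among them. Without Svop the median log2 fold change was 0.82 in NPC, beside 0.66 over all listed genes.

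Ptprv and Ano3 stand on a list of 47 p53 targets and regulators that was drawn up with earlier results of these data known. Neither their place on it nor the counts and medians of the list are therefore independent evidence. Of the 47 genes 29 are listed in NPC. The 27 other than Ptprv and Ano3 were all higher, with a median log2 fold change of 1.26. Of all listed NPC genes 56.6% were higher, and their median log2 fold change, lower genes included, was 0.66. Over the higher NPC genes alone, with an EtOH level above 0, the median was 0.99. Ptprv had the highest value of the listed genes of the 47. Next by size at 1 RPKM or more were Perp, for a membrane protein of apoptosis, with 4.64 RPKM with 4-OHT and 0.400 RPKM with EtOH, and the death receptor gene Fas with 9.07 and 1.199 RPKM. Ano3, at 1.37, was close to the median of this list. In MEF Ptprv and Ano3 are the 2 listed genes of the 47, and Cdkn1a, the gene of the p21 inhibitor of cyclin-dependent kinases, which had 216 RPKM with 4-OHT and 65.1 RPKM with EtOH in NPC, is not listed there. A gene that is not listed may have been untested, over the p limit or under the fold limit.

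**Figure D5:**
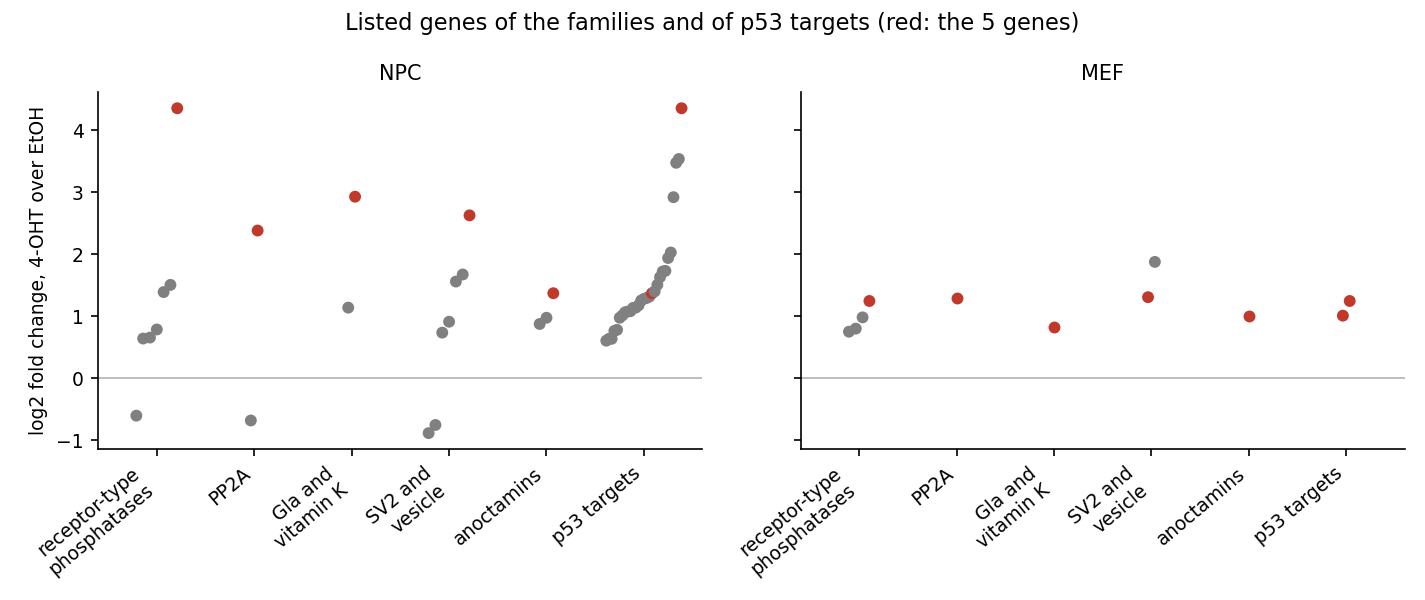
Log2 fold changes of 4-OHT over EtOH of the listed genes of 5 families and of p53 targets, in NPC and in MEF, 1 point per gene, with the 5 genes in red (Ptprv and Ano3 appear in 2 columns each) and the columns ordered by value. In NPC a red point is the highest of each column, with 4.35 for Ptprv and 2.63 for Svop, and in MEF few other genes are listed.

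In NPC, several genes that mark neurons and glia were also higher, where 56.6% of all listed genes were. Of the 3 listed progenitor markers Hes5 was lower, while Ednrb and Id1 were higher. Of 10 neuron markers 4 are listed, 3 higher, with a summed level of 12.2 RPKM with 4-OHT and 6.33 RPKM with EtOH. They include the neuronal tubulin gene Tubb3 at 9.59 and 4.81 RPKM and the glutamate receptor gene Gria1 at 1.73 and 0.188 RPKM. Stmn2 was also higher, at 0.108 and 0.032 RPKM, while Snap25 was lower, at 0.770 and 1.297 RPKM. Of 10 glia markers 7 are listed, all higher, with a sum of 144 RPKM with 4-OHT and 76.5 RPKM with EtOH. Most of that sum is Aldh1l1, an astrocyte enzyme gene, at 118 RPKM with 4-OHT and 67.7 RPKM with EtOH. Of 6 immune and 5 endothelial markers 2 each are listed, higher, with an immune sum of 2.0296 RPKM with 4-OHT and 0.894 RPKM with EtOH and an endothelial sum of 0.258 and 0.146 RPKM. In MEF no neuron, glia, immune or endothelial marker is listed, and of 6 smooth muscle and mural markers Myh11 and Rgs5 are, higher, with a sum of 24.9 RPKM with 4-OHT and 12.01 RPKM with EtOH. No listed marker is at 0 in either arm. The part of these cell types in the rise of the 5 genes was not tested, and in bulk RNA a change in the number of cells of a type and a change in RNA per cell cannot be told apart.

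Neighbouring or overlapping genes are described for 4 of the 5 genes, and any part of theirs in the rise was not tested. Ptpn7, a phosphatase gene of blood cells that starts 105 bases from Ptprv on the other strand, had 0.378 RPKM with 4-OHT and 0.0540 RPKM with EtOH in NPC, a log2 fold change of 2.81, and is not listed in MEF. Man2b2, 37859 bases from Ppp2r2c, had 5.55 RPKM with 4-OHT and 2.69 RPKM with EtOH in NPC. Svop overlaps Usp30 on the opposite strand over 26110 bases, of which 161 are exonic in both genes, and Ano3 overlaps Muc15 over 18188 bases with 61 exonic in both. Neither Usp30 nor Muc15 is listed in either table. Counting by strand is not stated and the library kit does not mark strand, so reads over the shared exon bases cannot be told apart. Ptprv itself is annotated without a coding sequence, since RefSeq GRCm38.p6 calls it a transcribed pseudogene and GENCODE M21 a processed transcript, of 37 exons and 6108 bases in its longest form. The other 4 genes are protein-coding in both, with coding sequences of 678 bases in Prrg4, 1644 in Svop, 1341 in Ppp2r2c and 2943 in Ano3.

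Splicing, which the choice of the genes did not use, gave no listed event in any of them. The splicing tables hold 255 events of 222 genes in NPC and 71 events of 60 genes in MEF, and none lies in the 5 genes or the other 10 genes higher in both. Few listed genes have an event at all, 31 of 2416 (1.28%) in NPC and 2 of 111 (1.802%) in MEF, so a count of 0 is near that background. Of the families above, Ptprs alone has a listed event, a skipped exon on chromosome 17 at 56568522 to 56568580 in mm9. In its 2 listed pairs of NPC libraries the inclusion level was 0.509 and 0.269 with 4-OHT against 1 and 0.706 with EtOH. The reads behind it were 14 and 19 for inclusion and 6 and 23 for exclusion with 4-OHT, and 24 and 27 for inclusion and 0 and 5 for exclusion with EtOH. Of the p53 list, Mdm2 and Mdm4 in NPC and Mdm2 and Lrdd in MEF have listed events. The Mdm4 exon, of a p53 inhibitor gene, is the one of these listed in 3 pairs, with a level of 0.473 ± 0.041 with 4-OHT and 0.710 ± 0.034 with EtOH in NPC (SD, n = 3 each; exact two-sided permutation p = 0.1, the smallest that 3 libraries against 3 allow). Within the 3 pairs the level differed by -0.242, -0.228 and -0.241, and sign flips within pairs gave an exact two-sided permutation p = 0.25, again the smallest possible. The event is listed because it changed, so neither test is independent of that choice. An event that is not listed may have had too few reads to test, and the 5 genes had low levels in several arms.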

How the data were processed

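RNA of 12 libraries, 3 per group, was sequenced from NPC and MEF. Per the submitters' processing notes, CASAVA 1.8, TopHat2 2.03, Bowtie2 2.0.0.6 and Cuffdiff 2.02 were used with mm9. The authors deposited RPKM values, 1 per arm, with a log2 fold change and an unadjusted p-value, per the file headers. The authors deposited splicing tables of changed events with read counts and the inclusion level as a fraction, by pair of libraries, whose codes match no label. Depth per library is unknown.

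Log2 fold changes were recomputed from RPKM with Python 3.11.15 and pandas 2.3.3 (SciPy for the permutation test), with no pseudocount, and differed from the deposited ones by at most 1.18e-05. Genes at 0 RPKM with EtOH, 10 in NPC and 2 in MEF, were not ranked. The highest possible Benjamini-Hochberg adjusted p counted 55341 gene names as tested and was tested on simulated data. No test was run on the 5 genes, because the tables' own contrasts chose them. The members and lists were chosen with earlier results of these data known. Named genes were the 5 genes, the other genes higher in both tables, the 3 nearest in the pair of changes, listed genes of the lists (up to 4 per list at 1 RPKM or more by size, all where 6 or fewer) and listed neighbours; some that the rule names are not reported here. Named beyond this rule, after their values were seen, were Cdkn1a, Phyh, St8sia2, Ptprn, Ptpre, Ptpru, Syt4, Snap25, Syt11 and the genes with splicing events; marker genes come from the fixed marker list. Of 24 PP2A and 47 p53 names, 23 and 45 matched the annotation. Alternatives added a pseudocount of 0.1 or 1 RPKM, took differences of RPKM, asked for 1 RPKM in the higher arm, or took a stricter p.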

Additional observations from a re-analysis of the deposited data

How the results depend on the processing

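The excess of the log2 fold change in NPC over MEF kept its sign for all 5 genes with either pseudocount. With 0.1 RPKM added it was 2.48 for Ptprv, 1.89 for Prrg4, 1.42 for Svop, 1.46 for Ppp2r2c and 0.35 for Ano3, and with 1 RPKM added 1.103, 0.98, 1.59, 1.49 and 0.30, so that Svop, not Ptprv, then had the largest. The difference of RPKM gained, NPC minus MEF, was 1.73, 0.0236, 9.09, 4.58 and 1.40 in the same order. For Prrg4 the gains were thus near equal, with no replicate spread to set beside them. All 5 genes stayed higher in NPC under each filter. In MEF, 4 of the 5 remained with 1 RPKM required in the higher arm (without Ppp2r2c), 1 with a deposited p under 0.01 (Ptprv), and 0 by the bound on the adjusted p. Genes higher in both numbered 15, with 10 left at 1 RPKM or more in both, 4 of them among the 5 genes, and 3 left (Ptprv, Rgs4 and Arhgap20) with a deposited p under 0.01 in both. With 1 RPKM required, Ptprv still ranked 1 in NPC, now of 824, and Svop ranked 2 and Ptprv 4 of 43 in MEF. No paired analysis was possible because, for the 5 genes, each arm of the expression tables has 1 value for its 3 libraries and the splicing tables hold no event. For the Mdm4 exon, a replicate block over pairs of libraries, chosen after seeing the data, left the difference at -0.237 with neither p under 0.05. For the 5 genes no replicate could be left out, since each arm has 1 value for its 3 libraries.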
